A study of Mus musculus with 3 samples.

Results

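The genes described here move, store or buffer zinc, iron, copper and magnesium, and their levels are given for cultures of the bone cell line IDG-SW3. They were chosen by symbol: the solute carrier families Slc30, Slc39, Slc11, Slc31, Slc40 and Slc41, the copper pumps Atp7a and Atp7b, the transferrin receptor Tfrc, the ferritin subunits Fth1 and Ftl1, and the metallothioneins Mt1 and Mt2. The rule found 39 of the 25410 symbols in the files, of which 24 belong to the zinc transporter families, 6 to iron, 4 to copper, 3 to magnesium and 2 are metallothioneins. RNA-seq was done on total RNA depleted of ribosomal RNA from IDG-SW3, a mouse line that matures from osteoblast-like to osteocyte-like cells. All 3 libraries form 1 group of biological replicates: parathyroid hormone (PTH) was given at 100 nM for 24 h and RNA was taken on day 35, in osteogenic medium with ascorbic acid and β-glycerol phosphate and without the interferon-γ used for expansion. The line is a single immortalised line that carries a temperature-sensitive T antigen, inactive at the temperature of differentiation, and a Dmp1-driven green fluorescent protein. Vehicle-treated libraries were not analysed here, so no effect of PTH was measured, and the comparisons set each gene against a fixed level or against a partner gene in the same library.

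Cells hold metal ions within narrow limits. Slc39 (ZIP) proteins bring zinc into the cytosol from outside or from organelles, Slc30 (ZnT) proteins move it out or into vesicles, and metallothioneins bind what is free. Iron enters bound to transferrin through Tfrc, is passed to the cytosol by Slc11a2, is stored in the ferritin shell of Fth1 and Ftl1 and leaves through ferroportin, encoded by Slc40a1. In bone, zinc is a cofactor of the tissue-nonspecific alkaline phosphatase that promotes mineralization, copper is the cofactor of the lysyl oxidases that crosslink collagen, and magnesium is a constituent of the mineral.

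Several of the iron genes are controlled after transcription by iron response elements, short hairpins in the untranslated parts of the mRNA that the iron regulatory proteins bind when iron is scarce. The sequences are shown because the place of the match, before or after the coding sequence, differs among the iron genes. Mode of control was not measured in these libraries. The search asked for a C, any 5 bases, CAGTGN, and 5 bases that pair with the first 5 (G-T pairs allowed), on the sense strand of GENCODE M21 basic transcripts. A match in the 5′ untranslated region was found in 0.133% of 21087 genes, 3 of them members (Fth1, Ftl1 and Slc40a1), and a match in the 3′ untranslated region in 0.587% of 21806 genes, with Tfrc the only member and 4 matches. Each is printed 5′ to 3′ with 5 bases on either side, T in place of U, and capitals mark the loop CAGTGN.
Fth1, 5′ untranslated region, GRCm38 chr19:9982733-9982759, plus strand: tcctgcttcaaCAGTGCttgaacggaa
Ftl1, 5′ untranslated region, GRCm38 chr7:45459780-45459806, minus strand: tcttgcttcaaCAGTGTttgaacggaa
Slc40a1, 5′ untranslated region, GRCm38 chr1:45925466-45925492, minus strand: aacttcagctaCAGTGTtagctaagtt
Tfrc, 3′ untranslated region, GRCm38 chr16:32631220-32631246, plus strand: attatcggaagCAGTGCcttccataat
Tfrc, 3′ untranslated region, GRCm38 chr16:32631599-32631625, plus strand: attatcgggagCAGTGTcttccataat
Tfrc, 3′ untranslated region, GRCm38 chr16:32631664-32631690, plus strand: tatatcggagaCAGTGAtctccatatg
Tfrc, 3′ untranslated region, GRCm38 chr16:32631711-32631737, plus strand: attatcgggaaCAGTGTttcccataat
As background, an element before the coding sequence lets the regulatory proteins block translation, whereas elements after it let them stabilise the mRNA. RNA levels of Fth1, Ftl1 and Slc40a1 therefore do not report their protein output. Genes without a match, the iron members Slc11a1 and Slc11a2 among them, may hold a variant that these letters do not cover. A missing match is therefore not read as a lack of control.

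The libraries held 35195518, 37299517 and 45240005 counts in replicates 1, 2 and 3. Although replicate 3 was the deepest it listed the fewest symbols above 0, 19560 against 20763 and 21542. Levels are given as RPKM, counts per kilobase of transcript scaled to the library total, computed here and shown as mean ± SD (n = 3). The osteoblast and osteocyte markers were above 1 RPKM for 7 of 11 genes, including Phex, an osteocyte endopeptidase, at 9.05 ± 0.940. Of all genes tested, 43.2% were above. The other 4 markers were unresolved, among them Mepe with a mean of 0.436 RPKM and Fgf23 with 0.266. Of the genes that define mature osteocytes, Dmp1 was unresolved, with 77, 115 and 6 counts (0.792, 1.12 and 0.0480 RPKM) and replicate 3 far under the others, and Sost had 2 counts in replicate 1 and 0 in the rest. Summed levels of the markers of other cell types were 12.6 to 14.9 RPKM for macrophages (6 genes, Lyz2 alone at 12.9), 9.54 to 16.2 for adipocytes, 2.86 to 3.27 for endothelium, 0.305 to 0.596 for erythroid cells and 0.421 to 0.477 for hepatocytes, against 11537 to 12994 for the osteoblast and osteocyte list, most of it Sparc (6409), Col1a2 (2946) and Ibsp (2052). Above 1 RPKM were 2 of 4 adipocyte markers (Fabp4 at 9.72, Adipoq at 1.88) and 1 of 4 endothelial markers (Kdr at 2.62). So was 1 of 6 macrophage markers, against 0 of 4 erythroid and 0 of 4 hepatocyte markers. In bulk RNA, fewer cells of a type and less RNA per cell cannot be told apart.

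Among the members, 24 of 39 were above 1 RPKM, 4 were below, 8 were unresolved and 3 were listed at 0 in every library, by edgeR's quasi-likelihood test with adjustment over all 21012 genes tested at a threshold of 0.05. Without the members at 0, 66.7% of members were above. Of all genes tested, which also leaves out genes at 0, 43.2% were called above and 13.4% below. The median level of the 39 members was 6.08 RPKM, and that of all 23048 genes with a known length was 0.497 RPKM. In the files some symbols have several transcript rows, and such symbols were often at 0, in 31.6% of cases against 5.04% of symbols with 1 row. The 8 members with several rows (Atp7a, Slc11a2, Slc39a5, Slc39a7, Slc39a8, Slc39a11, Slc39a14 and Slc41a3) may therefore be understated, and a low value of one is not read as absence. Among the 31 members with 1 row, 22 were above and 2 below. Without the member at 0, 73.3% were above, and among all tested genes with 1 row the shares called were 45.4% and 12.6%. All 4 members below 1 RPKM lost their call in DESeq2 (adjusted p = 0.368 to 0.546), which called Slc39a11 instead (adjusted p = 0.0306). The largest edgeR adjusted p of the 24 members above was 6.37e-30, that of Slc40a1. For this gene it was 2.96e-06 in limma and 0.0402 in DESeq2.

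**Figure D1:**
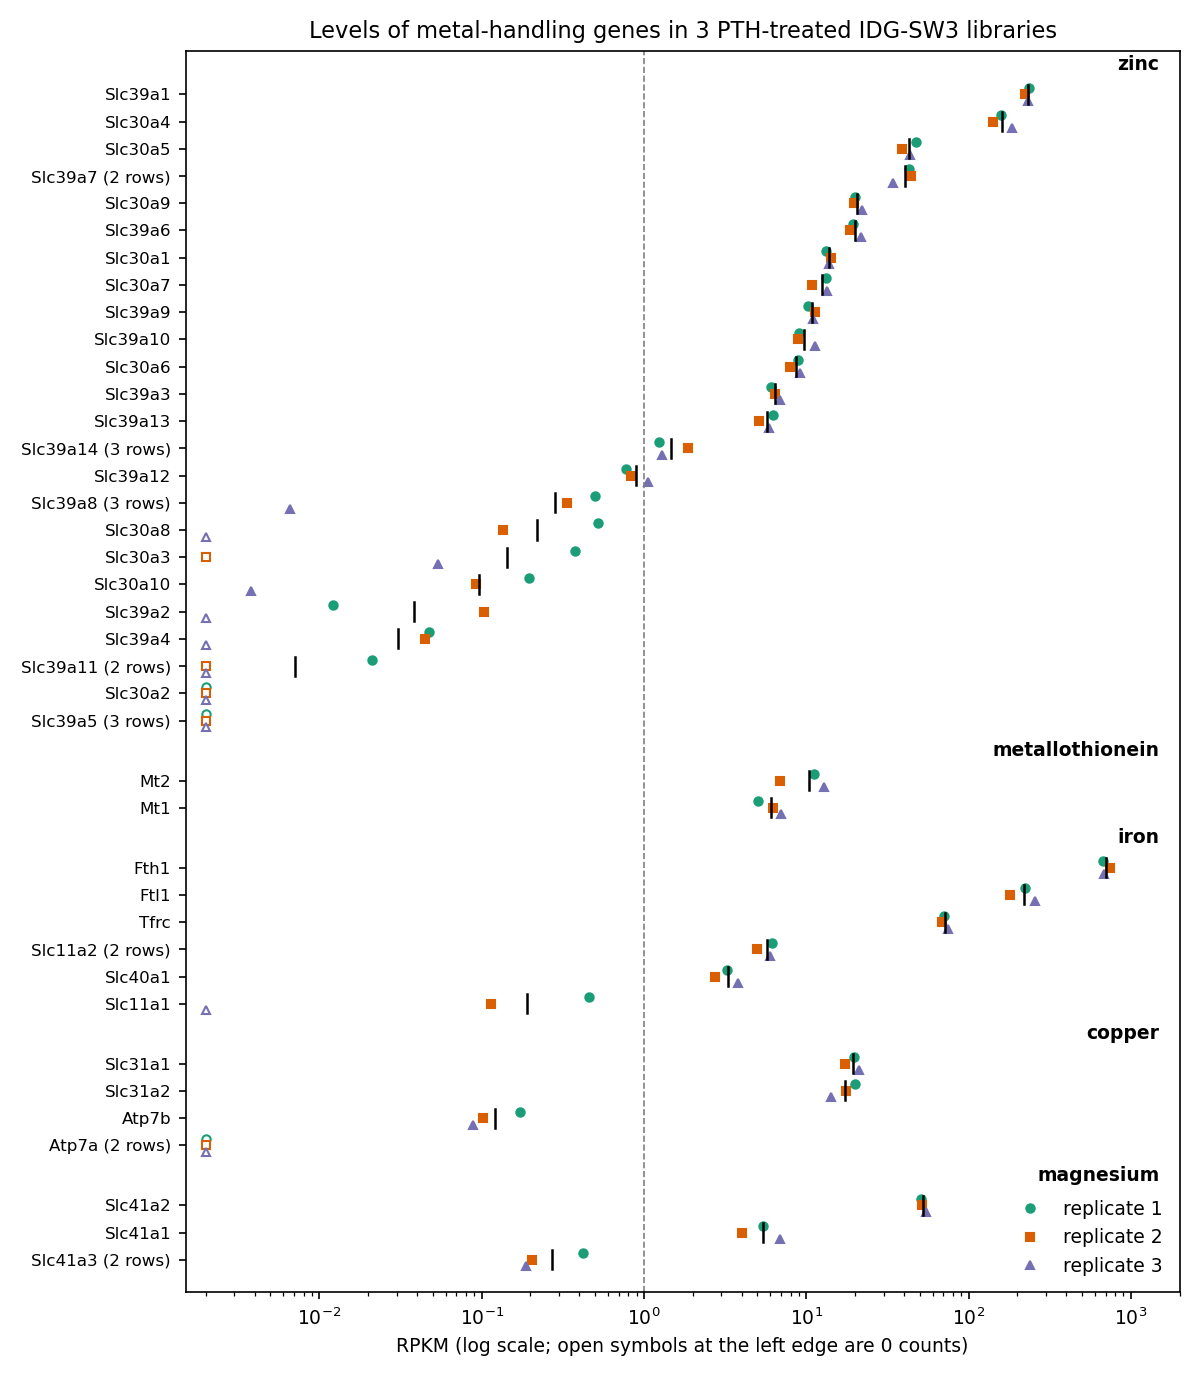
Level in RPKM (log scale) of each of the 39 genes in each library, grouped by metal and ordered by mean level; the black tick is the mean, the dashed line is 1 RPKM, and open symbols at the left edge are libraries with 0 counts. Fth1, Slc39a1, Ftl1 and Slc30a4 lie above 100 RPKM in every library, and most genes under 1 RPKM have widely separated libraries.

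**Figure D2:**
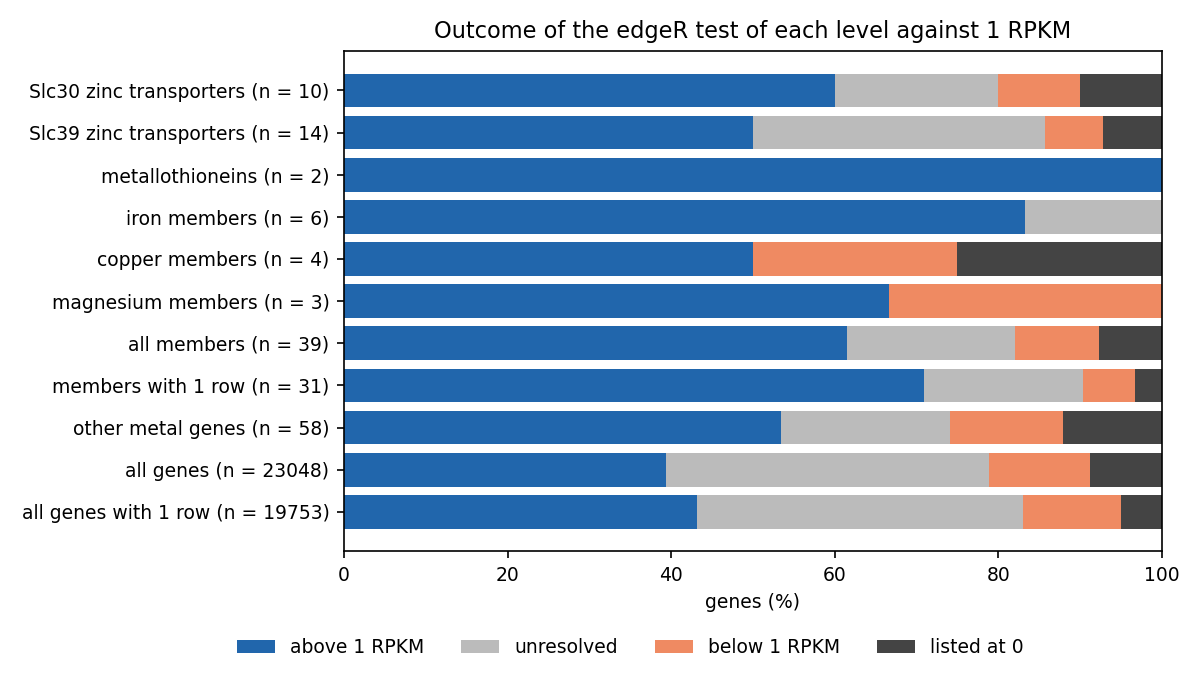
Percent of genes above 1 RPKM, unresolved, below 1 RPKM or listed at 0, for each metal group, all members, the other metal genes and all genes, with the number of genes in brackets. The members are above in 61.5% of cases and all genes with a length in 39.4%.

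Zinc uptake genes were led by Slc39a1, which encodes ZIP1, a zinc importer of the cell surface. Its levels were 236, 224 and 233 RPKM in replicates 1, 2 and 3, a mean of 231 ± 6.01. The 3 libraries lie close together, and 98.5% of tested genes had a lower mean. Slc39a1 held 70.6 ± 0.891% of the summed RPKM of the 14 Slc39 genes, and no other Slc39 gene held more than the 12.4 ± 1.72% of Slc39a7.

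The other surface importers of the family were lower in every library. Slc39a6 and Slc39a10, whose proteins ZIP6 and ZIP10 can form one complex, stood at 19.9 ± 1.70 and 9.72 ± 1.34 RPKM. Slc39a6 exceeded Slc39a10 in each library, at 19.5, 18.5 and 21.8 RPKM against 9.06, 8.85 and 11.3. Their within-library log2 ratio was 1.03 ± 0.08 (SD; limma adjusted p = 0.000851, over 12 pairs). The 12 pairs were chosen with earlier results of these data known, so the p-values of all pair ratios are descriptive only. Slc39a3, another surface importer, was at 6.08, 6.42 and 6.88 RPKM, a mean of 6.46 ± 0.402.

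Importers that release zinc from the secretory pathway were also expressed. Slc39a7, the zinc channel of the endoplasmic reticulum, was at 43.0, 44.5 and 34.2 RPKM (mean 40.6 ± 5.55). All its counts came from 1 of its 2 rows. Slc39a9, a Golgi zinc transporter, stood at 10.9 ± 0.520 RPKM, a log2 level of 3.44 that was 4.72 with the shortest transcript. Slc39a13 encodes ZIP13, whose loss causes a connective tissue disorder with skeletal dysplasia, and was at 6.23, 5.08 and 5.91 RPKM (mean 5.74 ± 0.593). Slc39a7 exceeded Slc39a13 in 3 of 3 libraries, by 2.80 ± 0.30 on the log2 scale (limma adjusted p = 9.63e-05). Exons of Slc39a13 overlap those of Psmc3 on the other strand and exons of Slc39a9 overlap those of Erh likewise, while Slc39a7 overlaps the readthrough model Gm20427 on its own strand. The libraries were directional, but the sources used here do not say whether counting used strand, so these reads cannot be told apart.

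Importers that also carry iron, manganese or cadmium were low. Slc39a14, which encodes ZIP14, was at 1.25, 1.88 and 1.30 RPKM (mean 1.47 ± 0.352), unresolved against 1 RPKM (edgeR adjusted p = 0.0534), with all counts in 1 of 3 rows. With the longest annotated transcript as its length it fell on the other side of 1 RPKM (log2 level −0.68, edgeR adjusted p = 0.0379). It was called above 1 RPKM by limma (adjusted p = 0.0497) and by edgeR with a minimum of 10 counts, with the shortest transcript or without replicate 3 (adjusted p = 0.0399, 0.0476 and 0.0341). Slc39a8, which encodes ZIP8, had 59, 42 and 1 counts over 3 rows, or 0.501, 0.336 and 0.00660 RPKM. It was called below 1 RPKM (edgeR adjusted p = 0.0184). Replicate 3 stands far under the others there, and without replicate 1 or 2 the gene was unresolved (edgeR adjusted p = 0.0705 and 0.0722). Slc39a14 lay above Slc39a8 in every library, by a log2 difference of 2.35 ± 1.28 (limma adjusted p = 0.0111). It was 1.67 without replicate 3 and 2.95 without replicate 1. With the longest transcripts the ratio was 1.29 and no longer passed (limma adjusted p = 0.0594), and with a pseudocount of 1 it was 0.96. Both genes have several rows and may be understated, so a low value is not read as absence and the size of the ratio is uncertain.

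The remaining Slc39 genes had few counts. Slc39a12, known from the brain, was at 0.779, 0.836 and 1.05 RPKM and unresolved (edgeR adjusted p = 0.611). Slc39a2 had 1, 9 and 0 counts and Slc39a4, the intestinal importer mutated in acrodermatitis enteropathica, 4, 4 and 0. Slc39a11 had 2, 0 and 0 counts over 2 rows. All 3 were unresolved, with edgeR adjusted p of 0.137, 0.126 and 0.0651. Slc39a5 was at 0 in each of its 3 rows, where a count of 0 allows up to 3 counts, or 0.0429 RPKM in replicate 1, for counting error only.

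Among the zinc exporters Slc30a4 was highest. It encodes ZnT4, which loads zinc into endosomes and secretory vesicles and is mutated in the lethal milk mouse. Its levels were 158, 141 and 184 RPKM (mean 161 ± 21.7), and 97.7% of tested genes had a lower mean. Slc30a4 held 61.8 ± 2.23% of the summed RPKM of the 10 Slc30 genes. Its libraries did not overlap with those of Tfrc, the next member in order, but overlapped with those of Ftl1.

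ZnT5 and ZnT6, encoded by Slc30a5 and Slc30a6, act as a pair that supplies zinc to enzymes of the secretory pathway, and ZnT7, encoded by Slc30a7, does the same alone. Alkaline phosphatase is a known client of both, and Alpl, which encodes the form of bone, stood at 132 ± 12.6 RPKM in these libraries. Slc30a5 was at 47.4, 38.7 and 43.5 RPKM (mean 43.2 ± 4.37) and Slc30a6 at 8.87, 7.93 and 9.10 (mean 8.63 ± 0.622). Slc30a5 exceeded Slc30a6 in 3 of 3 libraries, by 2.31 ± 0.09 on the log2 scale (limma adjusted p = 6.26e-05). The size rests on the lengths taken, and with the shortest annotated transcripts it was 0.60. Slc30a7 was at 13.2, 10.9 and 13.4 RPKM (mean 12.5 ± 1.37), between the members of that pair. With the shortest transcripts it lay below both, at a log2 level of 3.65 against 5.55 for Slc30a5 and 4.94 for Slc30a6.

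Slc30a1 encodes ZnT1, the zinc exporter of the cell surface. It was at 13.2, 14.2 and 13.8 RPKM, a mean of 13.7 ± 0.517, with an SD of 0.05 on the log2 scale. The surface importer Slc39a1 exceeded it 16.7-fold, by 4.15, 3.97 and 4.07 on the log2 scale in replicates 1, 2 and 3 (mean 4.06 ± 0.09, limma adjusted p = 1.28e-05). Slc30a9, whose protein exports zinc from mitochondria, stood at 20.1, 19.6 and 22.2 RPKM (mean 20.6 ± 1.37).

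Exporters known from specialised cells were near the lower limit. Slc30a8, the ZnT8 of insulin granules, had 36, 10 and 0 counts, and Slc30a3, the ZnT3 of synaptic vesicles, 27, 0 and 5. Both were unresolved (edgeR adjusted p = 0.0978 and 0.122). Slc30a10, a manganese exporter, had 40, 20 and 1 counts (mean 0.0968 ± 0.0956 RPKM) and was called below (edgeR adjusted p = 0.00372). Without replicate 1 the gene was unresolved (edgeR adjusted p = 0.140). Slc30a2, which loads vesicles of the mammary gland, was listed at 0 in all libraries, so that at most 0.0333 RPKM is allowed in replicate 1 by a floor of 3 counts.

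The metallothioneins, small cysteine-rich proteins whose genes are induced by zinc through the factor MTF1, stood above 1 RPKM, with 78.0% of tested genes lower than Mt2 and 71.8% lower than Mt1. Mt2 was at 11.2, 6.92 and 12.9 RPKM (177, 116 and 262 counts; mean 10.3 ± 3.07) and Mt1 at 5.03, 6.23 and 6.98 (112, 147 and 200 counts; mean 6.08 ± 0.987). Replicate 2 was lowest for Mt2 and replicate 1 for Mt1, and the 2 genes overlapped slightly at 6.92 and 6.98 RPKM. The log2 ratio of Mt2 to Mt1 was 1.14, 0.15 and 0.87 in the 3 libraries, a mean of 0.72 ± 0.51 (limma adjusted p = 0.0350). It did not pass without replicate 1 (0.51, limma adjusted p = 0.125) or replicate 3 (0.64, limma adjusted p = 0.148), and the ratio was 1.30 with the longest transcripts. Among 641 protein-coding genes of 400 to 700 nt with 1 row, the lengths around these genes, the median was 0.515 RPKM and 67.1% stood lower than Mt1. Mtf1, the zinc-sensing transcription factor itself, was at 4.39, 4.03 and 4.65 RPKM.

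The promoters of Mt1 and Mt2 are shown with their matches to the core of the metal response element that MTF1 binds. The search covered the 250 bases before the RefSeq start (GRCm38.p6) for the core TGCACNC or TGCGCNC on both strands. The 2 patterns cannot match at the same position of a strand, though matches on opposite strands may overlap. Of 32851 windows in the table, 21.4% held at least 1 match. Mt2 held 3, and 1.26% of windows held 3 or more. Mt1 held 1. Among the members, 33 had a listed promoter, with 40 windows, of which 20 held a match. Slc30a10 also held 3. Slc30a4, Slc30a2, Atp7a and 1 window of Tfrc held 2. Slc30a1 held 1, and Slc30a6, Slc30a7 and Slc30a9 held 0. Capitals mark the matches in the sequences, which are written 5′ to 3′ on the strand of the gene.
Mt1, GRCm38.p6 chr8:94178839-94179088, plus strand: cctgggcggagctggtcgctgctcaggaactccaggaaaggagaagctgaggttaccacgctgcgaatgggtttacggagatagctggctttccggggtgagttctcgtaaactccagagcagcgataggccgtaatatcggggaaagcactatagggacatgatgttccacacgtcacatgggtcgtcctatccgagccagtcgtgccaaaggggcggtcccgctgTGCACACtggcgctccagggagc
Mt2, GRCm38.p6 chr8:94172368-94172617, plus strand: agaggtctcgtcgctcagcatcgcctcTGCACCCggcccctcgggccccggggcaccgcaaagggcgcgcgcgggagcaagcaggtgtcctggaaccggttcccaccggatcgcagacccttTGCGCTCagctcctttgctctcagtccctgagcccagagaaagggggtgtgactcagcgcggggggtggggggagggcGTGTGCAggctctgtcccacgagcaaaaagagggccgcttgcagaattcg
A match describes letters in the window and is not evidence of binding. Bases after the listed start or further upstream were not searched. The counts of Mt1 and Mt2 are therefore not the number of elements in their promoters, and they do not rank the 2 genes.

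Fth1 was the highest of all members, and Ftl1 stood among the next, beside Slc39a1. Fth1, the ferritin heavy subunit that oxidises iron, was at 673, 743 and 687 RPKM, a mean of 701 ± 37.2 that exceeded 99.5% of tested genes. Ftl1, the light subunit, was at 222, 181 and 257 RPKM (mean 220.0 ± 37.7). Fth1 lay above every other member in each library. The log2 ratio of Fth1 to Ftl1, both carriers of the 5′ element printed above, was 1.60, 2.04 and 1.42, a mean of 1.68 ± 0.32 or 3.22-fold (limma adjusted p = 0.000653). Ferritin genes have processed copies in the genome, 5 of them annotated by name in GENCODE M21, and how reads that match several places were counted is not given in the sources used here, so both levels are uncertain to that extent. Exons of Ftl1 also overlap Gm10252 on the other strand.

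Among the genes of iron movement, the receptor stood above the endosomal transporter and the exporter. Tfrc, the transferrin receptor, was at 70.4, 68.6 and 74.8 RPKM (mean 71.3 ± 3.18). Slc11a2 encodes DMT1, which passes iron from endosomes to the cytosol, and was at 6.14, 4.97 and 5.97 RPKM (mean 5.69 ± 0.635). Its 2 transcript rows had 638, 624 and 926 counts and 166, 65 and 79 counts. Slc40a1, the gene of ferroportin, the exporter of iron, was at 3.27, 2.75 and 3.80 RPKM (mean 3.27 ± 0.523), the lowest of the 24 members above 1 RPKM.

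Tfrc exceeded Slc40a1 21.3-fold, the log2 difference being 4.39, 4.59 and 4.26 (mean 4.41 ± 0.16, limma adjusted p = 1.28e-05). With the shortest and longest transcripts the mean was 5.27 and 3.88. Tfrc also exceeded Slc11a2 in every library, by 3.63 ± 0.13 on the log2 scale (limma adjusted p = 1.57e-05), although the 2 rows of Slc11a2 leave the size uncertain. Slc11a1, the metal transporter of macrophage phagosomes, had 34, 9 and 0 counts and was unresolved (edgeR adjusted p = 0.0921). Of the 6 macrophage markers, Lyz2 was above 1 RPKM with 638, 649 and 694 counts. Cd68 (7, 59 and 36 counts) and Adgre1 (listed as Emr1; 17, 15 and 5) were unresolved, Csf1r (17, 16 and 47) and Ptprc (0, 1 and 0) were below, and Itgam was at 0 in every library. The part of macrophage RNA in the Slc11a1 counts was not tested.

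Both copper transporter genes of the Slc31 family were above 1 RPKM. Slc31a1, which encodes the high-affinity copper importer CTR1, was at 19.5, 17.3 and 21.3 RPKM (mean 19.4 ± 1.996). Slc31a2, its vesicular relative, was at 19.8, 17.7 and 14.2 RPKM (mean 17.2 ± 2.86). The values overlapped, and the log2 ratio of −0.02, −0.03 and 0.58 did not pass the test (mean 0.18 ± 0.35, limma adjusted p = 0.368). It passed with the longest transcripts, at 1.16 (limma adjusted p = 0.00261), so no order of these genes is given.

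The copper pumps, which deliver copper to secreted enzymes or export it, were listed very low. Atp7b had 32, 20 and 21 counts (0.172, 0.102 and 0.0880 RPKM) and was called below 1 RPKM (edgeR adjusted p = 0.00253), also with any library left out. Atp7a, the pump that supplies the lysyl oxidases in connective tissue, was at 0 in both of its rows in every library. Because symbols with several rows were often at 0, that value is not read as absence, and the ratio to Atp7b (log2 −1.12 ± 0.28, limma adjusted p = 0.00206) rests on the pseudocount alone.

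Magnesium transporters of the Slc41 family differed widely. Slc41a2 was at 51.2, 51.6 and 54.4 RPKM (mean 52.4 ± 1.76) and held 90.2 ± 2.04% of the summed level of the 3 genes. Slc41a1, the surface magnesium transporter, was at 5.40, 4.01 and 6.92 RPKM (mean 5.44 ± 1.46). Its libraries spread more than those of most members, with replicate 3 highest. Slc41a3 had 35, 18 and 20 counts over 2 rows (mean 0.270 ± 0.130 RPKM). It was called below 1 RPKM (edgeR adjusted p = 0.0448), but unresolved with replicate 1, 2 or 3 left out (edgeR adjusted p = 0.156, 0.176 and 0.0543). Slc41a1 exceeded Slc41a3 by 3.92 ± 0.62 on the log2 scale (limma adjusted p = 0.000174), and by 2.32 with a pseudocount of 1. The 2 rows of Slc41a3 leave this size uncertain.

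**Figure D3:**
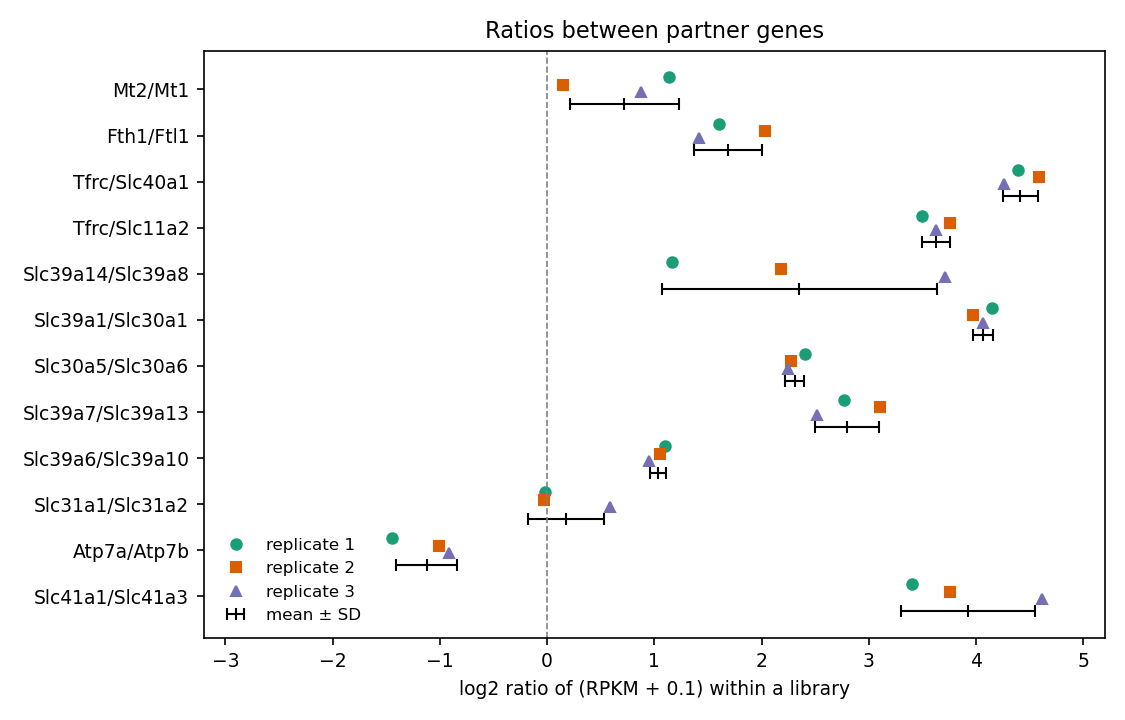
Within-library log2 ratio of (RPKM + 0.1) for each of 12 gene pairs, with a symbol for each library and the mean ± SD under them; the dashed line is equal level. Slc39a1/Slc30a1 and Tfrc/Slc40a1 lie between 3.97 and 4.59 in every library, Slc31a1/Slc31a2 straddles 0, and Atp7a/Atp7b rests on the pseudocount because Atp7a is at 0.

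The spread between libraries was small for most expressed members. Among the 25 members with a mean of 1 RPKM or more, the SD of log2(RPKM + 0.1) had a median of 0.15 and ranged from 0.04 for Slc39a1 to 0.47 for Mt2. The median over all 9883 genes at that level was 0.17. Slc41a1 (0.39) and Slc39a14 (0.31) followed Mt2. In the order of the 24 members above 1 RPKM, 16 overlapped in library values with the next lower member. Their order is not resolved by these ranges, which ignore that both genes come from the same library. Within libraries, Slc30a9 lay above Slc39a6 in each, whereas Slc39a1 lay above Ftl1 in replicates 1 and 2 only. With the median transcript length, the 8 members that did not overlap with the next were Fth1, Slc30a4, Tfrc, Slc41a2, Slc39a7, Slc30a6, Slc41a1 and Slc40a1. The order depends on the length taken: with the longest transcripts Slc41a2 (log2 level 5.72) lay above Tfrc (5.63). The shortest transcripts raised the level by over 1.5-fold for Fth1, Tfrc, Slc30a6 and Slc39a9, and the longest lowered it as much for Fth1, Mt1, Slc31a2 and Slc39a14.

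Low members varied with the library. Of 11 members with a mean above 0 and below 1 RPKM, 9 were highest in replicate 1 and 8 were lowest in replicate 3, with 5 at 0 there. Among all 11129 genes in that range the shares were 35.2% highest in replicate 1 and 36.4% lowest in replicate 3, with 27.6% at 0. Replicate 3 is also the library with the fewest symbols above 0. Its part in these low values was not tested.

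**Figure D4:**
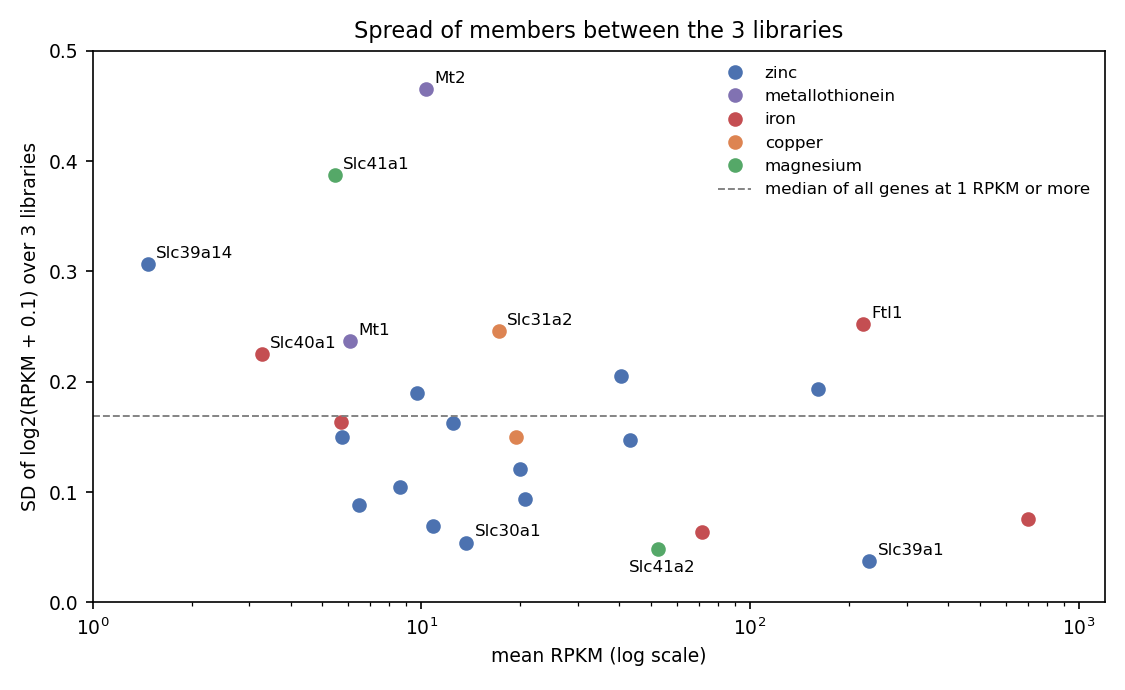
SD of log2(RPKM + 0.1) over the 3 libraries against mean RPKM (log scale) for the 25 members at 1 RPKM or more, coloured by metal; the dashed line is the median of all genes at that level, 0.17. Mt2 and Slc41a1 have the largest SDs, and Slc39a1 and Slc41a2 the smallest.

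Other genes of metal handling, from a list of 58 that the rule does not cover, were above 1 RPKM for 31, below for 8, unresolved for 12 and at 0 for 7. Of those tested, 60.8% were above, against 43.2% of all genes tested, of which 13.4% were below. The list held 44 genes with 1 row, of which 28 were above, 5 below and 3 at 0. Those with several rows may be understated, as for the members. By metal, those above were 18 of 35 iron genes, 7 of 8 copper genes, 5 of 11 magnesium genes and, of 4 zinc genes, Mtf1. The median was 3.12 RPKM. Sod1, the copper-zinc superoxide dismutase, was highest at 196, 210.2 and 180 RPKM.

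Iron genes of the list included Hmox1, the haem oxygenase that frees iron from haem, at 61.1, 53.8 and 62.3 RPKM, and Steap1, a relative of the endosomal iron reductases, at 62.4, 52.7 and 56.6. Trf, which encodes transferrin itself, was at 43.6, 40.8 and 38.1 RPKM, and Hfe, whose protein binds the transferrin receptor, at 30.8, 27.4 and 27.5. Pcbp1, an iron chaperone that loads ferritin, reached 23.8, 20.6 and 29.1 RPKM, and the haem transporter gene Slc48a1 21.6, 18.2 and 20.01. The iron regulatory proteins that bind the elements printed above are encoded by Aco1, at 16.2, 17.5 and 15.3 RPKM, and Ireb2, at 20.6, 19.1 and 26.4. Both were above 1 RPKM in the edgeR test (adjusted p = 2.41e-137 and 1.86e-134).

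Copper genes of the list included Commd1, a factor in copper export, at 34.1, 31.99 and 31.1 RPKM. Cox11 and Sco1, which hand copper to cytochrome oxidase, had means of 24.3 and 22.9 RPKM. The magnesium genes above 1 RPKM were led by Tusc3, at 68.7, 55.3 and 78.9 RPKM over 2 rows. Nipa2, Magt1, Nipa1 and Cnnm4, named after their values were seen, had means of 19.2, 13.3, 4.78 and 4.16 RPKM.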

How the data were processed

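The authors deposited raw counts, a whole number per transcript row named by gene symbol, for each of 3 libraries; TopHat and mm9 are named, with no role, in the submitters' processing notes. The file names say RPKM, but multiplied by transcript length the values sum to over 100 times what RPKM allows, so they were read as counts. The counter, its annotation and its use of strand are not stated. Rows were summed per symbol. Lengths are medians over GENCODE M21 basic transcripts (GRCm38), found for 23048 symbols and all 39 members. edgeR 4.0.16 tested each level against 1 RPKM, two-sided (R 4.3.3), with the count expected at 1 RPKM as offset, Benjamini-Hochberg adjustment over all genes above 0 in any library, and a threshold of 0.05. The 12 pair ratios used limma 3.58.1 on log2(RPKM + 0.1), adjusted over the pairs; folds on that scale understate low genes. The exact sign-flip test cannot go below p = 0.25 with 3 libraries. Members, lists and pairs were chosen with earlier results of these data known. Every member was named, and of other metal genes the rule was the 12 highest (Ireb2 among them) plus Mtf1 and Aco1; Nipa2, Magt1, Nipa1 and Cnnm4 fall outside it. Hbb-b1, in the erythroid list, had no length and was left out. No protein sequences were used. Alternatives were limma and DESeq2 1.42.0 for the levels, other library scalings, filters, transcript lengths, treatment of several rows and pseudocounts, and each replicate left out.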

Additional observations from a re-analysis of the deposited data

How the results depend on the processing

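The number of members above 1 RPKM lay between 22 and 25 under every alternative run, and that of the other metal genes between 28 and 31. Calls below 1 RPKM were less stable, over all genes too: 13.4% of tested genes were below in the edgeR test, 46.9% by limma, 1.28% by DESeq2 and 18.9% with no filter. Against 4 members below, limma gave 10, DESeq2 1 (Slc39a11, not one of the 4), a minimum of 10 counts in every library 2, no filter 7 (the 3 members at 0 included) and symbols with 1 row 2, and leaving out 1 replicate gave 1 to 3. Against 8 of the other metal genes below, limma gave 15, DESeq2 0 (1 at an unadjusted p under 0.05), no filter 14 and symbols with 1 row 5, and leaving out 1 replicate gave 1 to 8. Slc39a14 changed sides of 1 RPKM with the longest transcripts (log2 level −0.68). Of the pair ratios, Slc31a1/Slc31a2 changed sign without replicate 3 (−0.026, to 0.28 with another replicate left out) and passed with the longest transcripts (1.16). Mt2/Mt1 ranged from 0.51 to 1.01 with 1 replicate left out, Slc39a14/Slc39a8 was 1.29 with the longest transcripts, and Atp7a/Atp7b was −0.16 with a pseudocount of 1. The cause of these changes was not tested, beyond the fewer samples or genes of the alternative itself. The other 8 pairs kept their direction and side of the threshold. No pairing of samples between groups was possible because there is only 1 group, and the pair ratios were taken within each library. A count of 0 allows up to 3 counts, for counting error only. In RPKM, which is scaled to the library total, 8 of the 11 low members were lowest in replicate 3, the deepest library. Of all genes in that range 36.4% were. The part of depth was not tested.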
